A study of Mus musculus with 9 samples.

Results

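The 7 genes described here, Ffar2, Hcar2, Gpr84, Gpr35, Fpr1, Fpr2 and Ptafr, encode G protein-coupled receptors for bacterial and host metabolites, for formylated peptides and for a lipid mediator. They were picked by gene symbol from the 23282 gene rows measured in each library, and each of the 7 had a row. The question was how their mRNA levels differed between macrophages given RANKL alone and macrophages exposed to a dairy bacterium or to proteins taken from its surface.

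All 9 libraries came from RAW264.7, a mouse macrophage line labelled as BALB/c in origin and at passage 30, which turns into multinucleated, bone-resorbing osteoclasts when it is given the cytokine RANKL. In the RANKL alone group (3 libraries), cells received RANKL at 50 ng/mL, and in the surface protein group (3 libraries) they also received proteins extracted with guanidine-HCl from Propionibacterium freudenreichii MJ2 at 10 µg/mL. In the heat-killed MJ2 group (3 libraries), cells were exposed to 10000000 heat-killed bacteria per mL. Treatment lasted 4 days in every group. The labels list RANKL among the treatments but do not state library by library that the heat-killed MJ2 cells received it, and no cells without RANKL were analysed here. A single cell line was used, and nothing says whether the 3 libraries of a group came from separate cultures, so the p-values measure the spread between these libraries, which may be technical.

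G protein-coupled receptors span the plasma membrane and pass the binding of an extracellular ligand to heterotrimeric G proteins, which in turn set cyclic AMP, calcium and migration. Ffar2 responds to short-chain fatty acids such as acetate and propionate, Hcar2 to butyrate, the ketone body beta-hydroxybutyrate and niacin, and Gpr84 to medium-chain fatty acids. Fpr1 and Fpr2 detect peptides that start with formylmethionine, as bacterial and mitochondrial proteins do, and Ptafr binds platelet-activating factor (PAF). In myeloid cells these receptors are known for chemotaxis, for the oxidative burst and, in the case of Hcar2, for dampening inflammation.

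Expression was measured by 3′-end sequencing, in which each read is a tag near the end of a transcript. The deposited values are log2(value + 1), and the value itself is called adjusted reads below: it is a read number after the authors' normalization between libraries, and 1 sequenced read was worth 0.924 to 1.11 adjusted reads. Totals ran from 5930926 to 6503682 adjusted reads per library. In 3 libraries, 1 of each group (RANKL alone replicate 2, heat-killed MJ2 replicate 1 and surface proteins replicate 3), genes without a read carried small values above 0 but well under that of 1 read, so a value of this size counts as no read, and results are also given for the other 6 libraries where they differ. The macrophage marker list summed to 18153 to 19603 adjusted reads in RANKL alone, 24114 to 25242 with heat-killed MJ2 and 19702 to 21222 with surface proteins, with Mertk at 0 in every library. Its members went different ways, with Adgre1, Itgam, Lyz2 and Cd14 called higher and Csf1r called lower with surface proteins, and Cd14, Lyz2 and Itgam called higher with heat-killed MJ2 (both against RANKL alone, limma). Adgre1 held 26.7 to 106 adjusted reads in RANKL alone, 186 to 255 with heat-killed MJ2 and 712 to 1113 with surface proteins, and Itgam 212 to 259, 998 to 1347 and 1743 to 2152, which is the group order of Gpr84 and Fpr2 given below, and their part in the receptor levels was not tested. The osteoclast list, which holds genes such as Acp5 and Ctsk, summed to 17104 to 28423, 12114 to 14066 and 4966 to 7354 adjusted reads in the same order. Lists for T, B, mast and epithelial cells summed to no more than 10.7 adjusted reads in any library, and the fibroblast list to no more than 41.8. Of the latter, Dcn held 0, 0.057 and 0 adjusted reads in RANKL alone, 3.09, 7.75 and 0 with heat-killed MJ2 and 13.7, 23.2 and 9.81 with surface proteins, and its part in the receptor levels was not tested. In such bulk libraries, fewer cells of a type and less RNA per cell cannot be told apart, which holds for every level given below.

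Taken as a sum, the 7 receptors were low under RANKL alone and higher after either bacterial preparation. Their summed level was 26.9 to 42.7 adjusted reads per library in RANKL alone, 254 to 310 with heat-killed MJ2 and 416 to 622 with surface proteins. No RANKL alone library held more than 3 adjusted reads of Ffar2, Fpr1 or Fpr2, whereas with surface proteins all 7 receptors were above 3 adjusted reads in every library.

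A gene was compared between groups when 3 or more of the 6 libraries held 10 or more adjusted reads of it, and it was called differentially expressed at a limma adjusted p under 0.05 with at least a 2-fold change. For surface proteins against RANKL alone, 5 of the 7 receptors entered the test and all 5 were called higher (Ffar2, Hcar2, Gpr84, Fpr2 and Ptafr), where 10.2% of all genes tested were called higher and 7.32% were called lower. For heat-killed MJ2 against RANKL alone, 4 entered and 3 were called higher (Hcar2, Gpr84 and Fpr2), against 3.37% of all genes called higher and 0.897% called lower. For surface proteins against heat-killed MJ2, 6 entered and 2 were called higher (Ffar2 and Fpr2), against 5.08% called higher and 4.97% called lower among all genes. Ffar2, Hcar2 and Fpr2 were under 10 adjusted reads in every RANKL alone library, so they could enter a comparison with that group only by being high in the treated cells, as Ffar2 could against heat-killed MJ2, and the counts of receptors called are a description and no support for a shift of the set.

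**Figure D1:**
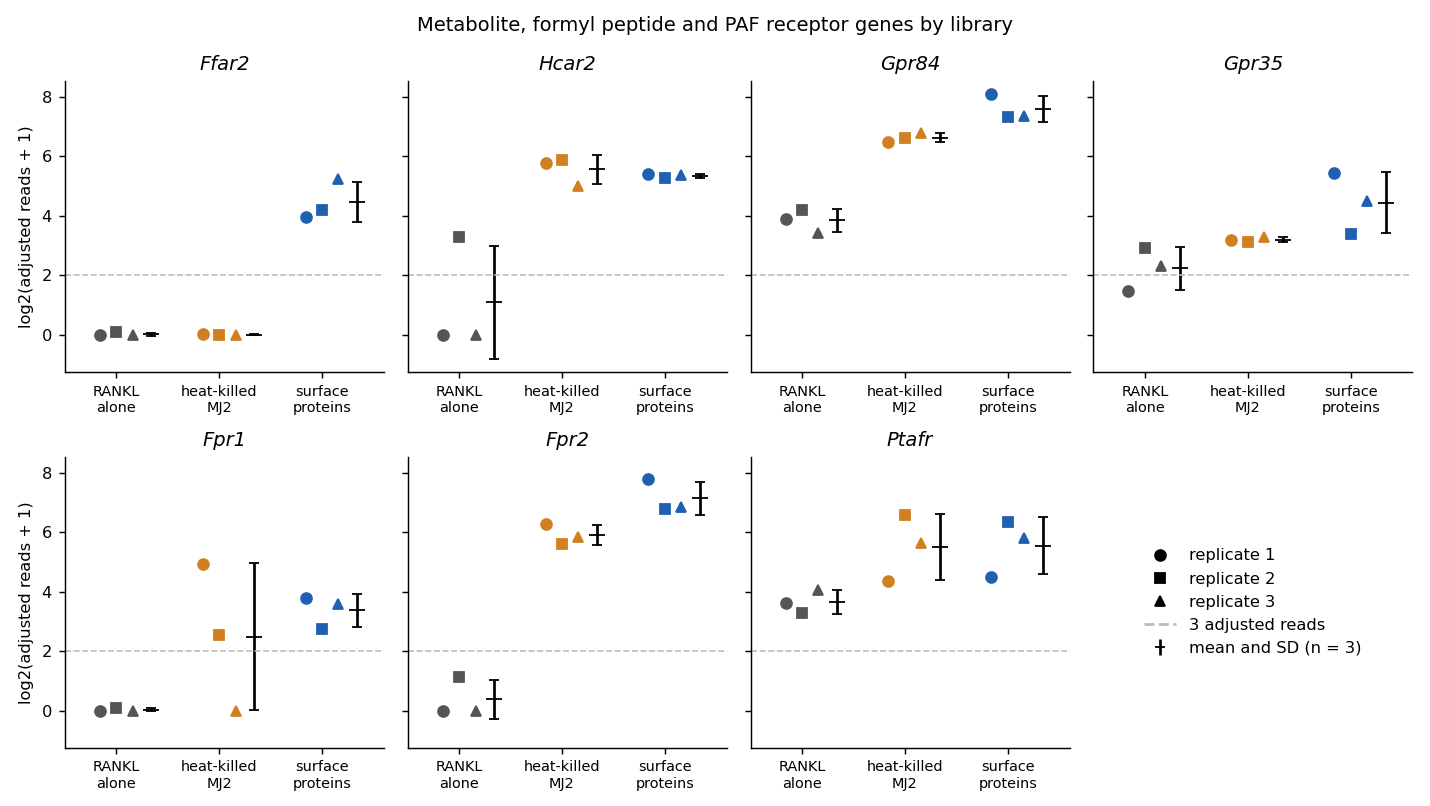
Level of each of the 7 receptor genes in the 9 libraries, on the log2(adjusted reads + 1) scale, with 1 symbol per library, the mean and SD of the 3 libraries of each group, and a dashed line at 3 adjusted reads. Ffar2 lies near 0 in RANKL alone and heat-killed MJ2 and between 3.97 and 5.23 with surface proteins, while the Gpr84 and Fpr2 libraries lie lowest in RANKL alone, higher with heat-killed MJ2 and highest with surface proteins, with no overlap.

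With all 3 surface protein libraries above all 3 RANKL alone libraries for each of the 7 receptors, the groups were fully separated, as they were in that direction for 24.7% of all genes tested in this comparison. With heat-killed MJ2 the same held for 5 of the 7 receptors (Hcar2, Gpr84, Gpr35, Fpr2 and Ptafr) and for 15.4% of all genes tested. All 3 surface protein libraries also stood above all 3 heat-killed MJ2 libraries for 4 receptors (Ffar2, Gpr84, Gpr35 and Fpr2) and for 22.2% of all genes tested. With 3 libraries against 3, the exact two-sided permutation test cannot go below a p of 0.1, which each of these separated pairs of groups reached, so single-gene tests rest on limma fitted across all genes. Once they entered the test, Hcar2 and Fpr2 had to be separated from RANKL alone. The same held for Ffar2 with surface proteins against both other groups. Every library of the second group was under 10 adjusted reads, so the 3 treated libraries had to hold 10 or more. Gpr35, and Fpr1 against RANKL alone, are counted among the receptors but were not among the genes tested. The counts of separated receptors are a description only.

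Ffar2, the receptor for short-chain fatty acids (chr7:30818348-30823775, minus strand, GRCm38), was detected only in the surface protein libraries. It had 14.7, 17.4 and 36.6 adjusted reads in the 3 surface protein libraries, against 0, 0.0614 and 0 in RANKL alone and 0.0182, 0 and 0 with heat-killed MJ2. No library of the latter 2 groups held a read of the gene, and the surface protein libraries overlapped neither of them. Taking 3 reads per library as the limit that a count of 0 allows, the mean of Ffar2 with surface proteins exceeded that of either other group at least 7.63-fold. On the log2(adjusted reads + 1) scale, the limma difference was 4.44 (SE 0.33, adjusted p = 0.000703) against RANKL alone and 4.46 (SE 0.33, adjusted p = 0.00364) against heat-killed MJ2. RANKL alone and heat-killed MJ2 held no read of it and were under the filter, and a fit with no filter gave a log2 difference of −0.02 (limma adjusted p = 0.915). Both calls were also made in each fit that left out 1 library and in the 6 libraries with no values under a read (log2 difference 4.09 in both comparisons). As a 3′ tag does not tell which of the gene's start sites was used, the promoter shown here is the most upstream of the 4 Ffar2 promoters in RefSeq (GRCm38.p6), chr7:30823726-30824025 on the minus strand, from 250 bases before to 50 bases after the start. It is printed because Ffar2 separated the 2 bacterial preparations, and its capitals mark a C/EBP match (TTGCNNAA, here on the other strand, starting at position −74 from the gene start) and an AP-1 match (TGANTCA, at position −52).
Ffar2 promoter: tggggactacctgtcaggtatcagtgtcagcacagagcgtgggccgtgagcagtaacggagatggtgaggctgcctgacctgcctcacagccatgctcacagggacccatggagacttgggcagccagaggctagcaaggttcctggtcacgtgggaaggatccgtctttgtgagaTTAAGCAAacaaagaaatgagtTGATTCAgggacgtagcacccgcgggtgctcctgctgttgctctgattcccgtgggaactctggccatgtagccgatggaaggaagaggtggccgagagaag

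Hcar2, which senses hydroxycarboxylic acids such as butyrate and beta-hydroxybutyrate (chr5:123863570-123865499, minus strand, a gene of 1 exon), was higher after both preparations. Its level was 54.2, 58.1 and 31.4 adjusted reads with heat-killed MJ2 and 41.1, 37.5 and 40.5 with surface proteins. Under RANKL alone it was 0, 8.73 and 0, so a single control library, replicate 2, held all of the control signal, and neither treated group overlapped the controls. Mean levels were 16.5-fold higher with heat-killed MJ2 and 13.6-fold higher with surface proteins than in RANKL alone, ratios that rest on that library. Without it the controls were at 0, and against the limit of 3 reads per library the means were at least 15.97-fold and at least 13.2-fold higher. The limma difference in log2(adjusted reads + 1) was 4.47 (SE 0.91, adjusted p = 0.0437) for heat-killed MJ2 and 4.25 (SE 0.88, adjusted p = 0.0161) for surface proteins. The 2 preparations overlapped each other, and the difference between them was −0.22 (SE 0.25, adjusted p = 0.572) with a 95% interval of −0.82 to 0.39. The call for surface proteins was lost without RANKL alone replicate 1 or 3 or surface proteins replicate 2 or 3 (limma adjusted p = 0.0517 to 0.0589), and the call for heat-killed MJ2 without any one library other than RANKL alone replicate 2 (adjusted p = 0.117 to 0.147). The heat-killed MJ2 call was also lost with quantile normalization (limma adjusted p = 0.0546), with no filter (0.108) and with a constant of 0.1 before the log (0.0956). Without the 3 libraries that hold values under a read, which takes away RANKL alone replicate 2, both calls were made. The log2 difference was then 5.33 (limma adjusted p = 0.0034) for surface proteins and 5.45 (adjusted p = 0.0187) for heat-killed MJ2.

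Gpr84, the receptor for medium-chain fatty acids (chr15:103308235-103310612, minus strand), was higher after both preparations. The RANKL alone libraries held 13.96, 17.4 and 9.87 adjusted reads, those with heat-killed MJ2 88.0, 97.7 and 109.9, and those with surface proteins 271, 157 and 164. No 2 groups overlapped. The mean was 7.17-fold higher with heat-killed MJ2 and 14.4-fold higher with surface proteins than in RANKL alone. Differences in log2(adjusted reads + 1) were 2.78 (SE 0.22, limma adjusted p = 0.0022) and 3.74 (SE 0.29, adjusted p = 0.000796). Between surface proteins and heat-killed MJ2 the difference was 0.96 (SE 0.24, adjusted p = 0.0432, 95% interval 0.37 to 1.54), which passed the p limit but stayed under the 2-fold limit on this scale, and the ratio of the mean adjusted reads was 2.01. Both calls against RANKL alone were made in every fit that left out 1 library, with log2 differences of 2.58 to 2.96 and of 3.49 to 3.92. The gene overlaps Gm49482 on the opposite strand. Its promoter (RefSeq, GRCm38.p6, chr15:103310389-103310688, minus strand) is printed because Gpr84 and Fpr2 had the most similar profiles of the 6 receptors compared over all libraries, and none of the 7 motifs searched was found in it.
Gpr84 promoter: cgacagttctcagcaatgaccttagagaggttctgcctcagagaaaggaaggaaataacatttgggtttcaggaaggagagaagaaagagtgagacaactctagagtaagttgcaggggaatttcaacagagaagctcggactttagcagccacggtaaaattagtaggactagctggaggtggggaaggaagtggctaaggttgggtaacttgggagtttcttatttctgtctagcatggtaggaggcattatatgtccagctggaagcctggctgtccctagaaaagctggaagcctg

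Gpr35, a receptor for which the tryptophan product kynurenic acid has been proposed as a ligand (chr1:92950865-92986391, plus strand), was too low to enter any of the 3 comparisons. It held 1.80, 6.54 and 3.94 adjusted reads in RANKL alone, 8.20, 7.72 and 8.82 with heat-killed MJ2 and 42.2, 9.58 and 21.8 with surface proteins. No 2 groups overlapped, although surface proteins replicate 2 stood just above the highest heat-killed MJ2 library. The mean adjusted reads were 5.99-fold higher with surface proteins and 2.02-fold higher with heat-killed MJ2 than in RANKL alone, and without surface proteins replicate 1 the former was 3.83-fold. Fitted without a filter on low values, the log2 difference was 2.21 (limma adjusted p = 0.0801) for surface proteins, 0.97 (adjusted p = 0.279) for heat-killed MJ2 and 1.24 (adjusted p = 0.224) between the 2 preparations, none of which passed the threshold. With surface proteins, Gpr35 passed it against RANKL alone without RANKL alone replicate 2 (2.55, limma adjusted p = 0.0474) or surface proteins replicate 2 (2.74, adjusted p = 0.0285), and against heat-killed MJ2 without surface proteins replicate 2 (1.76, adjusted p = 0.0461). In those fits a gene entered with 2 libraries at 10 or more adjusted reads, and Gpr35 did not pass against RANKL alone without RANKL alone replicate 1 (adjusted p = 0.101) or replicate 3 (adjusted p = 0.0893). For Gpr35 these 2 libraries were surface proteins replicates 1 and 3, so it entered only through the group where it was high. Surface proteins replicate 2 was the lowest library of that group, and leaving it out raised the difference. The passes are a description and no support for a difference.

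**Figure D2:**
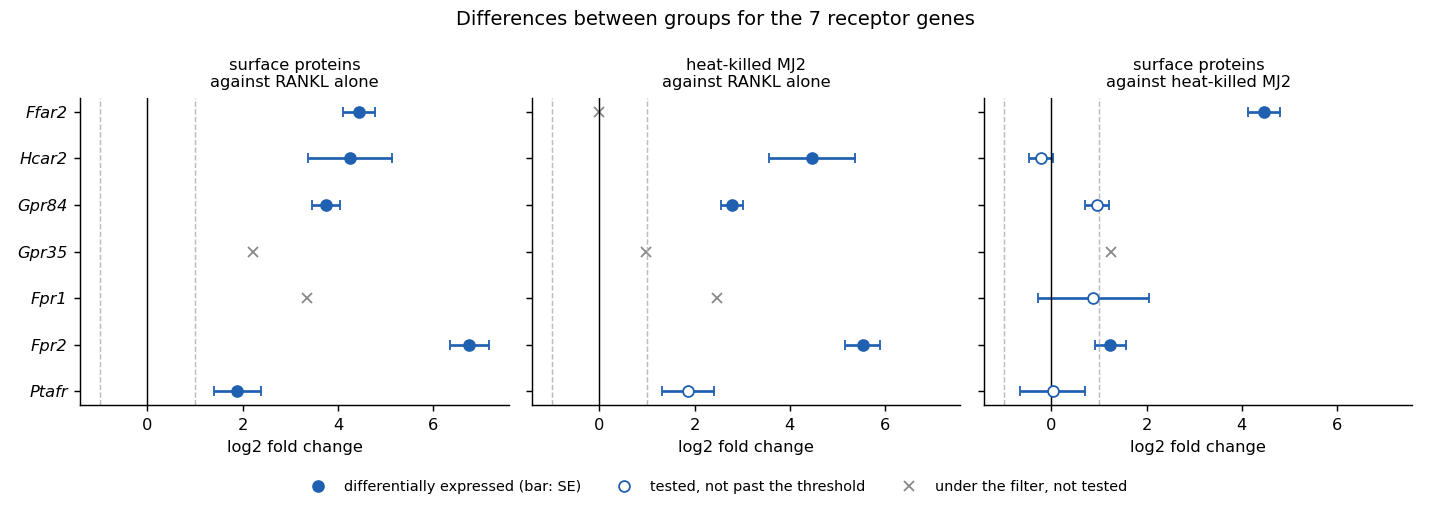
Difference between groups in log2(adjusted reads + 1) for each receptor in the 3 comparisons, with bars for the limma standard error, filled circles for differentially expressed genes, open circles for tested genes that were not called, crosses for genes under the filter, and dashed lines at the 2-fold limits. Against RANKL alone every tested receptor lies to the right of 0, with Fpr2 farthest at 6.76 and 5.53, and against heat-killed MJ2 only Ffar2 lies beyond 4.

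Fpr2, a formyl peptide receptor that also binds serum amyloid A and annexin A1, had the largest difference of the 7 receptors from RANKL alone under both treatments. It held 0, 1.19 and 0 adjusted reads in RANKL alone, 76.7, 47.4 and 55.9 with heat-killed MJ2 and 218, 109 and 115 with surface proteins. The 3 groups did not overlap. In whole reads the controls held 1 read together against 180 with heat-killed MJ2 and 442 with surface proteins, which are ratios of 180 (95% interval 31.9 to 7149) and 442 (95% interval 78.9 to 17497) that cover counting error only. On the log2(adjusted reads + 1) scale, the limma difference was 5.53 (SE 0.36, adjusted p = 0.000937) for heat-killed MJ2 and 6.76 (SE 0.41, adjusted p = 0.000367) for surface proteins. These calls were made in each fit without 1 library and in the 6 libraries without values under a read (5.71 and 7.28). Between the 2 preparations Fpr2 was 2.46-fold higher in mean adjusted reads with surface proteins (log2 difference 1.23, SE 0.32, adjusted p = 0.0471), a call that was lost in every fit that left out 1 library (adjusted p = 0.0689 to 0.139) and in the 6 libraries (adjusted p = 0.16), as well as with libraries scaled to equal totals (adjusted p = 0.0618), with no filter (0.0952), with a constant of 0.1 before the log (0.0518) and with all 9 libraries in 1 fit (0.0546). Of the 75-base windows in the last 1000 bases of the Fpr2 transcripts, 16.7% also occur in Fpr3 or Gm5966, and how reads shared with them were counted is not given in the sources used here. Fpr2 also overlaps Fpr3 on the same strand, and how tags in the overlap were assigned is not given either. The Fpr3 row was at 0 in all 9 libraries, which does not settle that assignment.

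Fpr1, the other formyl peptide receptor measured here above a few reads, varied widely with heat-killed MJ2. It held 29.5, 4.82 and 0 adjusted reads in the 3 heat-killed MJ2 libraries, 12.7, 5.75 and 10.9 with surface proteins, and 0, 0.06 and 0 in RANKL alone. The surface protein libraries were all above the controls, whereas heat-killed MJ2 replicate 3 was at 0 like them. With 3 reads per library as the limit for a count of 0, the mean exceeded that of RANKL alone at least 3.27-fold with surface proteins and at least 3.82-fold with heat-killed MJ2, the latter carried by replicate 1. Fpr1 was under the filter against RANKL alone. Without that filter, its log2 difference was 3.34 (limma adjusted p = 0.0048) for surface proteins and 2.46 (adjusted p = 0.402) for heat-killed MJ2. Between the 2 preparations the difference was 0.88 (SE 1.17, adjusted p = 0.628, 95% interval −1.95 to 3.70), and it turned to −0.37 without heat-killed MJ2 replicate 3.

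The 2 formyl peptide receptor genes are neighbours on chromosome 17, Fpr1 at 17876471 to 17883940 on the minus strand and Fpr2 at 17887824 to 17893952 on the plus strand, so they are divergent with their starts 3884 bases apart. Their promoters (RefSeq, GRCm38.p6, chr17:17883890-17884189 on the minus strand and chr17:17887574-17887873 on the plus strand) are set side by side because the genes share a locus and differed in their spread with heat-killed MJ2. Capitals mark a TATAAA match at position −227 from the Fpr1 start and, in Fpr2, a TATAAA match at −130, a STAT match (TTCNNNGAA) at −77 and, on the other strand, an ETS core (GAGGAA) at −19.
Fpr1 promoter: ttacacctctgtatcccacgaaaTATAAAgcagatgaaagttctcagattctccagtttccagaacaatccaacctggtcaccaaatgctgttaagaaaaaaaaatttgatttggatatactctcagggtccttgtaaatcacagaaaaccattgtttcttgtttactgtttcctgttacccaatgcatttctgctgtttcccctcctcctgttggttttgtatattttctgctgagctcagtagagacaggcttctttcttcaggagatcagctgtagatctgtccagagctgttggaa
Fpr2 promoter: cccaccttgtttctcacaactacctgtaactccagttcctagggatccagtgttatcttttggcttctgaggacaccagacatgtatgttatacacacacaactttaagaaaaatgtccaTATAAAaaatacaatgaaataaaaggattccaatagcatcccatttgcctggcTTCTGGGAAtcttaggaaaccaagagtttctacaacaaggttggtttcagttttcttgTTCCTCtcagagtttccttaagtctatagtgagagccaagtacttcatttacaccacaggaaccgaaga

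Among the 10 RefSeq promoters of 6 of the receptors (Hcar2 is not in the table), no NF-kB consensus and no ISRE core (GAAANNGAA) was found on either strand, where 8.46% and 8.56% of all 32851 mouse promoters of the same length hold them. AP-1 was found in 2 of the 10 promoters (7.81% of all promoters), C/EBP in 4, all of Ffar2 (10.8%), STAT in 1 (8.3%), the ETS core in 5 (28.3%) and TATAAA in 2 (13.6%), and 2 of the 4 Ffar2 promoters overlap. Ptafr held an ETS core and the second Gpr35 promoter an AP-1 match and 2 ETS cores. No 2 of these motifs overlapped in the printed promoters. A match describes letters only and is not evidence of a bound site.

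Ptafr, the receptor for PAF (chr4:132564067-132582683, plus strand), was expressed in every library and was called higher with surface proteins. It held 11.2, 8.74 and 15.8 adjusted reads in RANKL alone, 19.5, 93.9 and 48.1 with heat-killed MJ2 and 21.5, 79.8 and 54.8 with surface proteins. Both treated groups spread widely, with replicate 1 the lowest and replicate 2 the highest in each, but no treated library fell to the level of a control. The mean adjusted reads were 4.37-fold higher with surface proteins (log2 difference 1.89, SE 0.49, limma adjusted p = 0.0317) and 4.52-fold higher with heat-killed MJ2 (1.86, SE 0.55, adjusted p = 0.112), and the latter did not pass the threshold and was 2.84-fold without heat-killed MJ2 replicate 2. The 2 preparations differed by 0.03 (SE 0.68, adjusted p = 0.981, 95% interval −1.62 to 1.68). The surface protein call was lost in 5 of 6 fits that left out 1 library (adjusted p = 0.0607 to 0.0957; it was made without surface proteins replicate 1), with quantile normalization (0.0564), with no filter (0.0742) and in the 6 libraries (0.185), and a limma fit with a mean-variance trend called Ptafr with heat-killed MJ2 as well (adjusted p = 0.0362).

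Ordered by mean level over the groups, Gpr84, Gpr35 and Fpr2 went from RANKL alone through heat-killed MJ2 to surface proteins with no overlap, Ffar2 stood out with surface proteins only, and for Hcar2, Fpr1 and Ptafr the 2 preparations could not be separated from each other beyond their spread. Among the surface protein libraries, replicate 1 was the highest for 5 receptors (Hcar2, Gpr84, Gpr35, Fpr1 and Fpr2), for which replicate 3 came next and replicate 2 last, and the lowest for Ffar2 and Ptafr.

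The neutrophil marker list, like Fpr2, was higher with both preparations than in RANKL alone, but the order of the 2 preparations differed. The list was highest with heat-killed MJ2, whereas Fpr2 was highest with surface proteins and Fpr1 overlapped between them. The list summed to 9.94 to 15.0 adjusted reads in RANKL alone, 1941 to 2095 with heat-killed MJ2 and 130 to 231 with surface proteins. With the 2 preparations most of this was S100a8, at 1899, 2056 and 1906 adjusted reads with heat-killed MJ2 and 198, 209 and 113 with surface proteins, against 0, 0.11 and 0 in RANKL alone, while its partner S100a9 stayed at or under 3 adjusted reads everywhere and Mpo, Elane, Ngp and Ltf were at 0 in all 9 libraries. Cxcr2 made up the sum in RANKL alone (9.78 to 15.0 adjusted reads) and held 16.4 to 33.7 with heat-killed MJ2 and 12.7 to 22.1 with surface proteins, and Mmp8 held 7.15, 23.4 and 13.8 with heat-killed MJ2 and at most 4.89 elsewhere. Osteoclast markers were lowest where Gpr84, Fpr2 and Ffar2 were highest, as the sums above show, and the part of either list in the receptor levels was not tested.

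Close relatives of the 7 receptors were nearly silent. Of 11 paralogs listed, 10 were measured, and 9 of them (Ffar1, Ffar3, Hcar1, Gpr31b, Gpr55, Fpr3, Fpr-rs3, Fpr-rs4 and Fpr-rs6) did not exceed 3 adjusted reads in any library. The exception was Ffar4, a receptor for long-chain unsaturated fatty acids, which held 15.1, 25.6 and 17.8 adjusted reads in RANKL alone, 4.12, 0 and 7.84 with heat-killed MJ2 and 0, 8.63 and 10.97 with surface proteins. Its treated libraries were all below the controls, but its log2 differences of −2.49 (SE 0.78, limma adjusted p = 0.126) and −2.04 (SE 0.94, adjusted p = 0.151) did not pass the threshold.

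Counts in this and the following lists stand beside 10.2% of all genes called higher and 7.32% called lower for surface proteins, 3.37% and 0.897% for heat-killed MJ2, and 5.08% and 4.97% between the 2 preparations. Other receptors for metabolites, lipid mediators and chemoattractants did not share 1 direction. Of 34 listed, 16 were tested for surface proteins against RANKL alone, with 5 called higher, 2 called lower and a median log2 difference of 0.77, where the median of all genes tested was −0.01. Ptger2 and Lpar1 were under 10 adjusted reads in every RANKL alone library and entered only through the treated cells, and the median without them was 0.51. C3ar1, the receptor for complement fragment C3a, rose from a mean log2 level of 6.81 ± 0.36 (SD, n = 3) to 11.68 ± 0.23 (difference 4.87, SE 0.23, limma adjusted p = 0.000159). Ptger2, a receptor for prostaglandin E2, rose by 4.21 (SE 0.26), and the C5a receptor gene C5ar1 by 3.60 (SE 0.79). The remaining 2 called higher, named after their values were seen, were Lpar1, a receptor for lysophosphatidic acid (3.53), and the proton sensor Gpr65 (2.51). Those called lower were Ptger4, the other prostaglandin E2 receptor tested (−2.39, SE 0.49), and Gpr183, a receptor for oxysterols (−2.35, SE 0.25).

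With heat-killed MJ2, 14 of these receptors were tested and 5 were called higher and 0 lower by limma (2 were lower at an unadjusted p under 0.05), with a median of 0.51 (0.31 without Ptger2, which again entered only through the treated cells). The highest was C5ar1, whose 3 libraries held 376, 298 and 288 adjusted reads against 13.03, 26.0 and 1.96 in RANKL alone (log2 difference 4.94, SE 0.77, limma adjusted p = 0.0224). C3ar1 (3.00) and Ptger2 (2.47) followed, and Gpr65 (1.97) and the UDP receptor P2ry6 (1.62), both named after their values were seen, made up the 5. Between surface proteins and heat-killed MJ2, 17 were tested, with a median of 0.40. C3ar1 (1.87) and Ptger2 (1.74) were called higher with surface proteins, like Ffar2 and Fpr2, although the Fpr2 call was lost in every fit that left out 1 library. Ptger4 (−1.95), the adenosine receptor gene Adora2b (−1.38), C5ar1 (−1.34), Gpr183 (−1.23) and P2ry6 (−1.07) were lower, the last of them named after its value was seen.

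**Figure D3:**
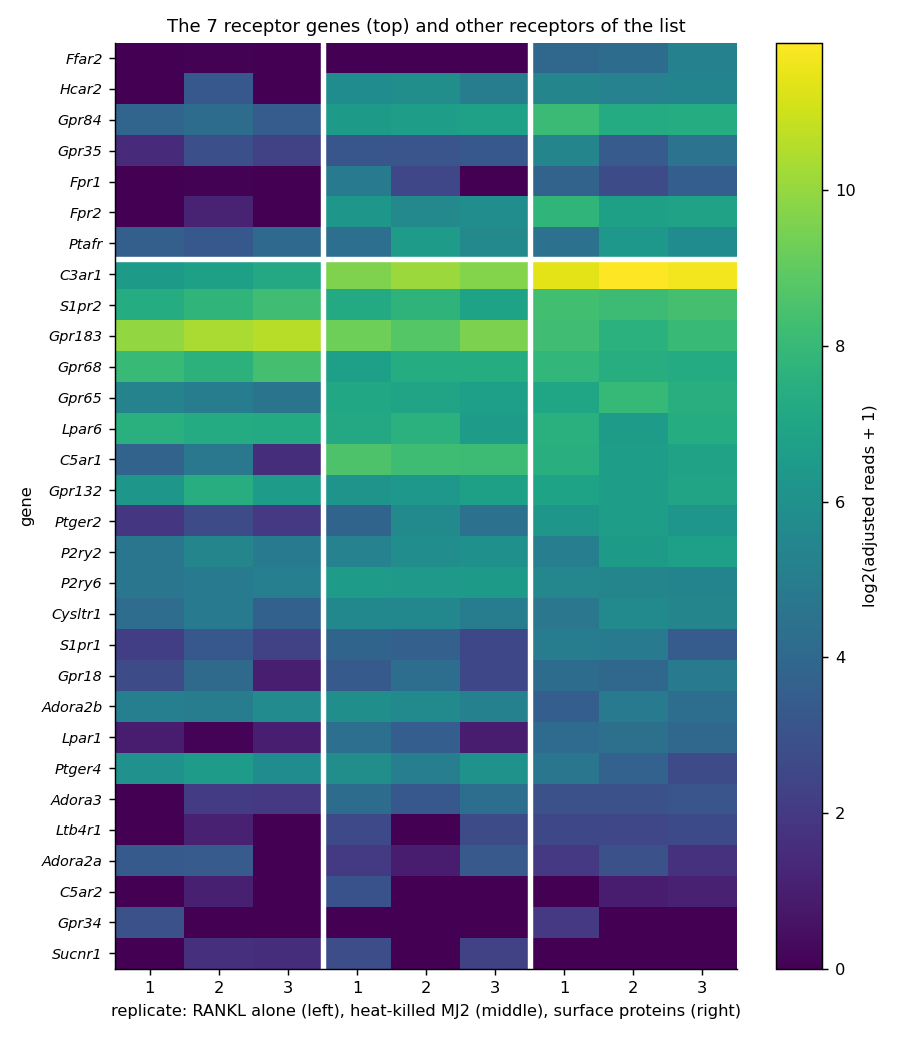
Level of the 7 receptor genes (top block) and of the 23 listed receptors of related function that exceeded 3 adjusted reads in any library (bottom block) in each library, coloured on the log2(adjusted reads + 1) scale from 0 to about 12. C3ar1 is the brightest with surface proteins (mean 11.68), Gpr183 is brightest in RANKL alone, and Ffar2 is dark outside the surface protein columns.

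Of 26 genes for G proteins and their effectors, 23 were tested with medians of 0.02 for surface proteins and 0.11 for heat-killed MJ2 against RANKL alone. With surface proteins, the gamma subunit Gng5 rose by 1.25 (SE 0.14), while the phospholipase C isoform Plcb4 fell by 2.09 (SE 0.16, limma adjusted p = 0.000771) and Prex1, an exchange factor that activates Rac downstream of chemoattractant receptors, fell by 1.33 (SE 0.29). With heat-killed MJ2 only Plcb4 was called (−1.19, SE 0.13), and 0 of the 23 were called by limma between the 2 preparations (3 were higher and 4 lower with surface proteins at an unadjusted p under 0.05). Of these, Gng5 (0.76, limma adjusted p = 0.0239), Pik3r5 (0.93, 0.0239) and Plcb4 (−0.90, 0.0193) missed only the 2-fold limit. Pik3r5 was named after its value was seen.

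Among 16 receptor kinases, arrestins and RGS proteins, which switch receptor signals off, 14 were tested against RANKL alone, with medians of −0.18 for surface proteins and −0.36 for heat-killed MJ2. Rgs18 was the 1 gene called higher. It went from 1.78, 10.9 and 0 adjusted reads in RANKL alone to 78.3, 101 and 83.3 with surface proteins (log2 difference 4.78, SE 0.84, limma adjusted p = 0.0095) and to 71.6, 87.1 and 45.1 with heat-killed MJ2 (4.37, SE 0.86, adjusted p = 0.0412). Rgs16 (−2.24, SE 0.38), Rgs2 (−1.85, SE 0.20) and Rgs10 (−1.34, SE 0.22) were called lower with surface proteins. With heat-killed MJ2, Rgs10 (−1.30) was called lower. Between the 2 preparations 13 were tested, and Rgs16 alone was called, lower with surface proteins (−1.68, SE 0.16).

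All 7 genes of the phagocyte NADPH oxidase, the enzyme behind the oxidative burst that formyl peptides trigger, were tested. Cybb, which encodes its catalytic subunit, held 822, 840 and 326 adjusted reads in RANKL alone, 3994, 5245 and 3813 with heat-killed MJ2 and 3662, 3620 and 3768 with surface proteins. Both treated groups were well above the controls, with log2 differences of 2.82 (SE 0.39, limma adjusted p = 0.0159) and 2.595 (SE 0.38, adjusted p = 0.0051). Of the 7, 0 were called by limma between the 2 preparations (2 higher and 1 lower at an unadjusted p under 0.05), although both higher genes also passed the adjusted p limit and missed only the 2-fold limit. The medians of −0.01 and 0.03 against RANKL alone were near those of all genes.

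Genes that make, move or break down ligands of these receptors were tested for 14 of 21, with medians of 0.19 for surface proteins and 0.22 for heat-killed MJ2. Saa3, which encodes a serum amyloid A protein of the family that binds Fpr2, held 9.28, 16.3 and 0 adjusted reads in RANKL alone and 76.4, 88.4 and 50.4 with surface proteins (log2 difference 3.66, SE 1.03, limma adjusted p = 0.0418). With heat-killed MJ2 it held 44.0, 44.5 and 22.5 adjusted reads, also all above the controls, with a difference that did not pass the threshold (2.69, adjusted p = 0.197). The other genes of the list called with surface proteins were Pafah2, which degrades PAF (2.51, SE 0.36), Lpcat2, which can make it (1.11, SE 0.32), and Pafah1b3, a subunit of an intracellular PAF hydrolase (−1.09, SE 0.19). Pla2g4a, Lpcat1, Lpcat3, Pafah1b1 and Pafah1b2, named after their values were seen and also enzymes of PAF and phospholipid turnover, were not called. With heat-killed MJ2, Pafah2 (1.75) and Lpcat2 (1.58) were called higher, and 0 were called by limma between the 2 preparations (4 were higher and 4 lower with surface proteins at an unadjusted p under 0.05). Of these, Slc16a1 (−0.69, limma adjusted p = 0.0332), named after its value was seen, missed only the 2-fold limit. Anxa1, whose protein is a ligand of Fpr2, was not called in any comparison and held 726, 759 and 1180 adjusted reads in RANKL alone and 574, 476 and 584 with surface proteins.

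**Figure D4:**
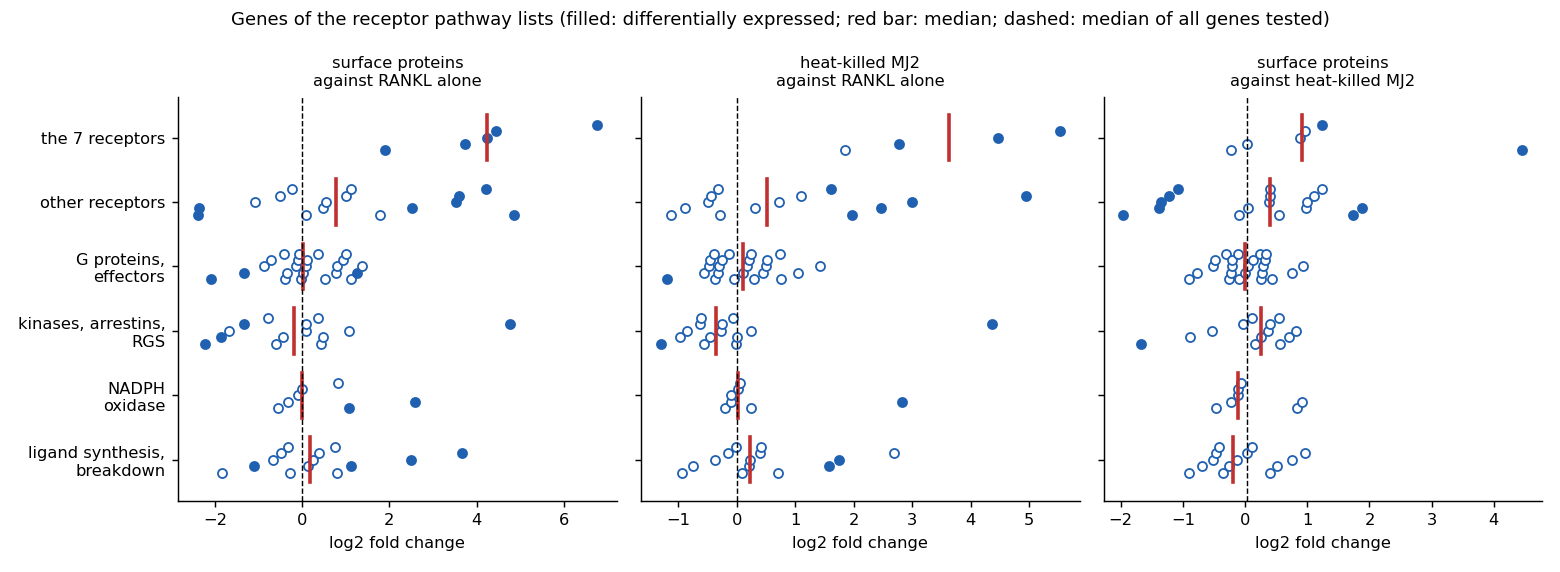
Log2 difference, on the log2(adjusted reads + 1) scale, of each tested gene of the 7 receptors and of the 5 related lists in the 3 comparisons, with 1 circle per gene, filled where the gene was differentially expressed, a red bar at the median of each list and a dashed line at the median of all genes tested. The receptor medians of 4.25 and 3.63 against RANKL alone include genes that entered only through high treated levels, and the other lists have medians between −0.36 and 0.77.

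As a description of how the receptors varied, each was correlated with the 11192 other genes with 10 or more adjusted reads in 3 or more of the 9 libraries. These 9 values share their groups, so a high coefficient mostly reflects the same ordering of the groups, and no p is given. Gpr84 and Fpr2 were each among the other's 3 closest genes (Pearson r = 0.99), with Slc7a5, an amino acid transporter, and Slc20a1, a phosphate transporter, beside Gpr84, and the metallothionein gene Mt2 and again Slc20a1 beside Fpr2. Hcar2 was closest to Plk2, Cd300lf and Lrp12 (r = 0.987 to 0.99), each at a like mean level with the 2 preparations. Ffar2 was closest to Col4a1, a basement membrane collagen, with mean log2 levels of 0.36 in RANKL alone, 0.34 with heat-killed MJ2 and 5.00 with surface proteins (r = 0.985), then to Bcl6 and Gga2. Fpr1 was closest to Lpar1, Ift57 and Grap (r = 0.897 to 0.942), and Ptafr to Aim1l, Pgap2 and Fbxo31 (r = 0.92 to 0.934), while Gpr35 was under the filter. Between pairs of the 6 receptors that passed, r ranged from 0.37 (Fpr1 and Ptafr) to 0.99 (Gpr84 and Fpr2).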

How the data were processed

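RNA from RAW264.7 cells was sequenced by the study as 9 QuantSeq 3′ mRNA libraries (75 base single-end reads). The deposited log2 values are, from their low steps, log2(value + 1) of read numbers that the authors normalized between libraries. The study's methods name quantile normalization, but sorted columns differed by up to 1.601 (log2). The submitters' processing notes name mm10, Bowtie2 and bedtools. Versions, the annotation and the treatment of reads shared between genes are not given in the sources used here. Because the values were normalized log2 values and not counts, no count model was used. Comparisons of 2 groups, 6 libraries each, were fitted with limma 3.58.1 (lmFit, eBayes) in R 4.3.3 on the deposited values of all genes with at least 10 adjusted reads (2 to the power of the value, minus 1) in at least 3 libraries, with Benjamini-Hochberg adjustment over all genes tested. With 1 library left out, or in the 6 libraries without values under a read, the filter asked for 2 libraries. Ratios are of mean adjusted reads, and where every library of a group held no read a floor of 3 reads per library stands in its place, which covers counting error only. Coordinates come from GENCODE M21 on GRCm38, the assembly that mm10 names, and promoters from RefSeq on GRCm38.p6, matched by symbol for 6 of 7 receptors. The receptors and gene lists were chosen with earlier results of these data known. Named from each list were, per comparison, up to 3 called genes from the top and up to 3 from the bottom of the order by log2 difference, together with the 3 genes closest to each receptor by Pearson r, and exceptions are marked. A gene that this rule would name is not reported here. On simulated data, the limma fit recovered 73% to 82% of genes changed by 2 on the log2 scale and 85% to 93% of those changed by 3, with 3 to 8 unchanged genes called. The simulated reference means had a floor above the mean log2 level of every receptor in RANKL alone, the highest of which was 3.85 (Gpr84). These rates therefore do not cover genes as low as the receptors were in RANKL alone. Alternatives in scaling, filter, constant before the log, variance model, threshold, pairing and libraries were tried, and the 6-library fit was added after the data were seen. Replicates of a group differed by more than sampling noise (chi-square per degree of freedom 7.39 to 21.5).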

Additional observations from a re-analysis of the deposited data

How the results depend on the processing

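For the 15 receptor differences tested, 216 of 258 alternative values kept their direction and their side of the threshold, 33 kept the direction and lost the call, 3 gained it and 6 changed sign. The calls of Gpr84 and Fpr2 against RANKL alone, and of Ffar2 in both comparisons that tested it, were made under every alternative in which the gene was tested. The sign changes were all of differences never called, between surface proteins and heat-killed MJ2. Ptafr went from 0.03 to −0.0501 with equal totals, −0.68 in the 6 libraries without values under a read, −0.55 without heat-killed MJ2 replicate 1, and −0.37 and −0.10 without surface proteins replicates 2 and 3 (range with 1 library left out −0.55 to 0.56). Fpr1 went from 0.88 to −0.37 without heat-killed MJ2 replicate 3 (range −0.37 to 2.10). Requiring 10 adjusted reads in all 6 libraries left no receptor to test against RANKL alone, so 0 were called there, and between the 2 preparations only Fpr2 was called. For surface proteins against RANKL alone, 3 to 6 receptors were called with 1 library left out, the lowest without surface proteins replicate 3. Between the 2 preparations, 1 receptor was called with equal totals, with no filter, with a constant of 0.1, with all 9 libraries in 1 fit and in the 6 libraries, and 1 to 2 with 1 library left out.

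Over all genes, 1902 were called for surface proteins against RANKL alone, 3163 with no limit on the fold change. For heat-killed MJ2 against RANKL alone 461 were called, 799 at an unadjusted p, 267 with no filter, 109 in the 6 libraries, and 141 to 321 with 1 library left out, the lowest without heat-killed MJ2 replicates 1, 3 and 2 (141, 182 and 217) and RANKL alone replicate 3 (293). Between the 2 preparations 1098 were called, 1949 with no limit on the fold change, 31 in the 6 libraries, and 265 to 1132 with 1 library left out, the lowest without heat-killed MJ2 replicates 1 and 3 (265 and 302) and surface proteins replicates 2 and 3 (520 and 532). The cause of these shifts was not tested, other than that fewer libraries entered the fits. Scaling moved the median of all genes by less than 0.1 (log2).

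The labels number replicates 1 to 3 in each group. Deviations of same-numbered libraries from their group means correlated at r = 0.0258 to 0.128, with 2 of 9 pairs over 0.1, so the numbers were not taken to pair the libraries, although in 8 of 9 cases the best partner had the same number, a hint from the data and not from the design. With the replicate block, 1813, 289 and 980 genes were called in the 3 comparisons in the order above, and Ptafr with surface proteins (adjusted p = 0.0511) and Hcar2 with heat-killed MJ2 (0.0647) missed the limma threshold. Depth limits what can be said of Ffar2, Fpr1 and Fpr2 in RANKL alone, where 3 reads per library is the limit that a count of 0 allows.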
